A study of Mus musculus with 12 samples.

Results

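The 8 genes described here encode enzymes that release hydrogen peroxide, superoxide or nitric oxide, together with the partner proteins some of them need, and most are best known from epithelium. They are the dual oxidases Duox1 and Duox2, their maturation factors Duoxa1 and Duoxa2, the NADPH oxidase Nox1 with its organizer Noxo1 and activator Noxa1, and the inducible nitric oxide synthase Nos2. They were taken by name from the 48448 genes to which the transcripts of the deposited table could be assigned. All 8 were in the table, and 7 of the 8, all but Duox1, were among the 16970 genes tested, which needed an FPKM (fragments scaled to transcript length and to the size of the library) of at least 1 in at least 3 libraries. The strain was C57BL/6, and RNA from colon was sequenced in 12 libraries. All 4 groups of 3 libraries came from mice carrying a cancer model driven by colitis: adjacent tissue of Synbindin flox mice, adjacent tissue of Synbindin ΔIEC mice, tumours of flox mice and tumours of ΔIEC mice. Trappc4 encodes Synbindin, which belongs to a complex that tethers transport vesicles, and the labels of the ΔIEC mice give its deletion without naming the Cre driver. The sources used here do not give age, sex, the agents of the model or the time of sampling.

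Dual oxidases are membrane enzymes that hand hydrogen peroxide to the outside of the cell. Each needs a maturation factor to leave the endoplasmic reticulum, and each oxidase gene lies head to head with the gene of its own factor. In the gut, DUOX2 with DUOXA2 is the pair known from the epithelium facing microbes, and it is induced by the microbiota and by inflammation. NOX1 is the NADPH oxidase of colon epithelium and makes superoxide once NOXO1, NOXA1, the membrane partner encoded by Cyba and the GTPase RAC1 join it. NOS2 makes nitric oxide from arginine and is induced by cytokines and microbial products in epithelium and in myeloid cells.

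Trappc4 was at 16.8, 17.0 and 17.3 FPKM in flox adjacent tissue and at 18.7, 17.5 and 20.9 FPKM in flox tumours. In ΔIEC mice it was at 10.2, 12.6 and 10.4 FPKM in adjacent tissue and at 12.7, 11.4 and 9.91 FPKM in tumours, below every flox library. Summed over 10 general epithelial markers, among them Epcam, the level was 5588 to 9459 FPKM in adjacent libraries and 4153 to 5869 FPKM in tumours, so epithelial RNA was present in every library. Of 8 neutrophil markers, the 7 other than Ly6g summed to 3.25 to 8.20 FPKM in adjacent libraries and 138 to 616 FPKM in tumours. Ly6g, which held most of the sum in several adjacent libraries and was then left out, was at 3.46 to 192 FPKM in adjacent tissue and 44.8 to 111 FPKM in tumours, and did not pass in either genotype. Fibroblast markers (8 genes, such as Dcn) summed to 48.2 to 260 FPKM in adjacent libraries and 289 to 606 FPKM in tumours. Squamous keratinocyte markers (8 genes) summed to 0.840 to 4.50 FPKM in adjacent libraries, with 6 of the 8 under 1 FPKM in each of them, and to 19.5 to 397 FPKM in tumours. These are bulk tissues, in which fewer cells of a type and less RNA per cell cannot be told apart.

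The promoters of Duox2 and Duoxa2 are shown because these genes share an intergenic region. Their levels also ran together across libraries, a relation that did not pass the adjustment given below and was not particular to them. Each window runs from 250 bases before to 50 bases after the RefSeq start site on GRCm38.p6, read 5′ to 3′ on the gene's own strand. Duox2 is on the minus strand (chr2:122298178-122298477) and Duoxa2 on the plus strand (chr2:122298650-122298949). Capitals mark a TATAAA box, the only match to the motifs searched.
Duox2: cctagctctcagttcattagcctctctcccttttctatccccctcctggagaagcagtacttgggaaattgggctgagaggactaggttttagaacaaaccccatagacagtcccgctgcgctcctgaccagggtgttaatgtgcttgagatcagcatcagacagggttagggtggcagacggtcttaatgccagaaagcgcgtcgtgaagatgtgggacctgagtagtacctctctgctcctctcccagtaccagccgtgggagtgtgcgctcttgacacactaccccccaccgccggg
Duoxa2: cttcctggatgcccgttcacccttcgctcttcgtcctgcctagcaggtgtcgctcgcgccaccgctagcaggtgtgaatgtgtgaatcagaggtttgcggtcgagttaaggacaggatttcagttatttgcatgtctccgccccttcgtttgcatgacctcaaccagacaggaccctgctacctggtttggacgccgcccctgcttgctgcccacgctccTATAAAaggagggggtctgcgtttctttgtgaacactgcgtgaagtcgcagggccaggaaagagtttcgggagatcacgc
The start sites are 673 bases apart, and 172 bases between the windows are not shown. RefSeq windows were found for 7 of the 8 genes. On both strands, 4 motifs were searched, none of which contains another: TATAAA, TTCNNNGAA (the palindrome bound by STAT proteins), the NF-κB site of the immunoglobulin kappa enhancer, and the core of interferon-stimulated elements. TATAAA, whose first base lies 30 bases before the Duoxa2 start site, was the only match in the 7 windows. Of 32851 promoter windows of this length, 13.6% held TATAAA, 8.30% TTCNNNGAA, 0.155% the NF-κB site and 3.44% the interferon core.

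Noxa1 was the gene of the group that fell in tumours. It encodes the activator that brings RAC1 to NOX1, and its gene lies on the minus strand of chromosome 2 (25085667 to 25095149, GRCm38). In flox mice its level was 17.9, 28.1 and 35.2 FPKM in adjacent tissue and 10.2, 16.9 and 10.7 FPKM in tumours. All 3 tumours lay below all 3 adjacent libraries, and the mean went from 27.1 ± 8.69 to 12.6 ± 3.72 FPKM (SD, n = 3 each), 46.5% of the adjacent level. In ΔIEC mice the levels were 25.5, 25.9 and 20.7 FPKM in adjacent tissue and 10.4, 12.2 and 13.8 FPKM in tumours. The groups again did not overlap, and the mean went from 24.1 ± 2.87 to 12.1 ± 1.68 FPKM (SD, n = 3 each), 50.4% of the adjacent level. The share of all tested genes without overlap was not counted, here or for the genes below, so separation alone does not set a gene apart.

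On the log2(FPKM + 1) scale, Noxa1 fell by 1.03 in flox tumours (SE 0.245, limma adjusted p = 0.00938) and by 0.93 in ΔIEC tumours (SE 0.245, limma adjusted p = 0.0178). P-values are two-sided and Benjamini-Hochberg adjusted over all tested genes, with a gene called below 0.05. Noxa1 was thus the 1 called gene of the 7 tested in each genotype. Of all tested genes, 36.3% were called in flox tumours (19.7% lower) and 29.4% in ΔIEC tumours (15.5% lower), so 1 of 7 is no larger a share than that of genes in general. At an unadjusted p below 0.05, 2 of the 7 genes (Noxa1 and Noxo1) passed in flox tumours and 2 (Noxa1 and Duox2) in ΔIEC tumours, beside 47.1% and 41.9% of all tested genes. The median difference over the 7 genes was -0.17 in flox tumours and -0.23 in ΔIEC tumours, beside -0.01 and -0.03 over all tested genes. With the summed FPKM of protein-coding genes set equal between libraries, the Noxa1 difference was -0.62 in flox mice (limma adjusted p = 0.0516) and -0.66 in ΔIEC mice (limma adjusted p = 0.0531). That scaling moved the median of all tested genes to 0.42 and 0.29, and relative to those medians Noxa1 stood at -1.05 and -0.95. In ΔIEC mice the call was also lost without adjacent replicate 1 (limma adjusted p = 0.054) or without tumour replicate 1 (limma adjusted p = 0.0684), while in flox mice it was kept without each library in turn.

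Markers of mature epithelium fell in the same comparison. Of 10 general epithelial markers, 9 fell in flox tumours and 2 in ΔIEC tumours, and with protein-coding genes set equal those counts were 3 and 1, the latter beside 1 that rose. Of 8 absorptive colonocyte markers, 7 fell in flox and 6 in ΔIEC tumours, and of 7 goblet cell markers 6 and 7 fell. The colonocyte markers summed to 2408 to 9481 FPKM in adjacent tissue and 214 to 491 FPKM in tumours, a wider gap than that of Noxa1. The fibroblast sum and the sum of the 7 neutrophil markers other than Ly6g were higher in every tumour than in every adjacent library. With Ly6g included, the neutrophil sums overlapped, at 197 FPKM in flox adjacent replicate 1 and 182 FPKM in flox tumour replicate 2.

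Markers of position along the colon also differed between the libraries. Hoxb13, a homeobox gene of the distal colon, was at 120, 10.2 and 1.56 FPKM in flox adjacent tissue, 30.1, 39.5 and 103 FPKM in ΔIEC adjacent tissue and 40.9 to 53.4 FPKM in tumours. The 2 adjacent libraries with the most Hoxb13 had the least Noxa1 (17.9 and 20.7 FPKM), and the 2 with the least Hoxb13 had the most Noxa1 (28.1 and 35.2 FPKM). All 6 tumours lay below the 2 adjacent libraries with more Hoxb13 than any tumour. Hoxd13, another distal gene, rose by 4.27 in flox and 4.93 in ΔIEC tumours (limma adjusted p = 0.0143 and adjusted p = 0.00975), the former lost without flox adjacent replicate 2 or 3. Insl5, also on the distal list, went the other way, with differences of -3.15 in flox and -3.44 in ΔIEC tumours (limma adjusted p = 0.0438 and adjusted p = 0.0373). Cyp2c55, a gene of the proximal colon, fell by 8.08 and 6.24 (limma adjusted p = 0.00171 and adjusted p = 0.00787). Of 6 distal genes tested, 3 rose and 1 fell in each genotype, and of 6 proximal genes 2 fell in each. Summed over the 6 proximal genes, flox adjacent replicates 1, 2 and 3 had 3513, 3108 and 1947 FPKM, the same order as their Hoxb13. The ΔIEC adjacent replicates had 12484, 10942 and 1633 FPKM, lowest where Hoxb13 was highest. Hoxb13 and the proximal genes thus did not give 1 common order of position. The parts of cell composition and of colon position in the Noxa1 difference were not tested.

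**Figure D1:**
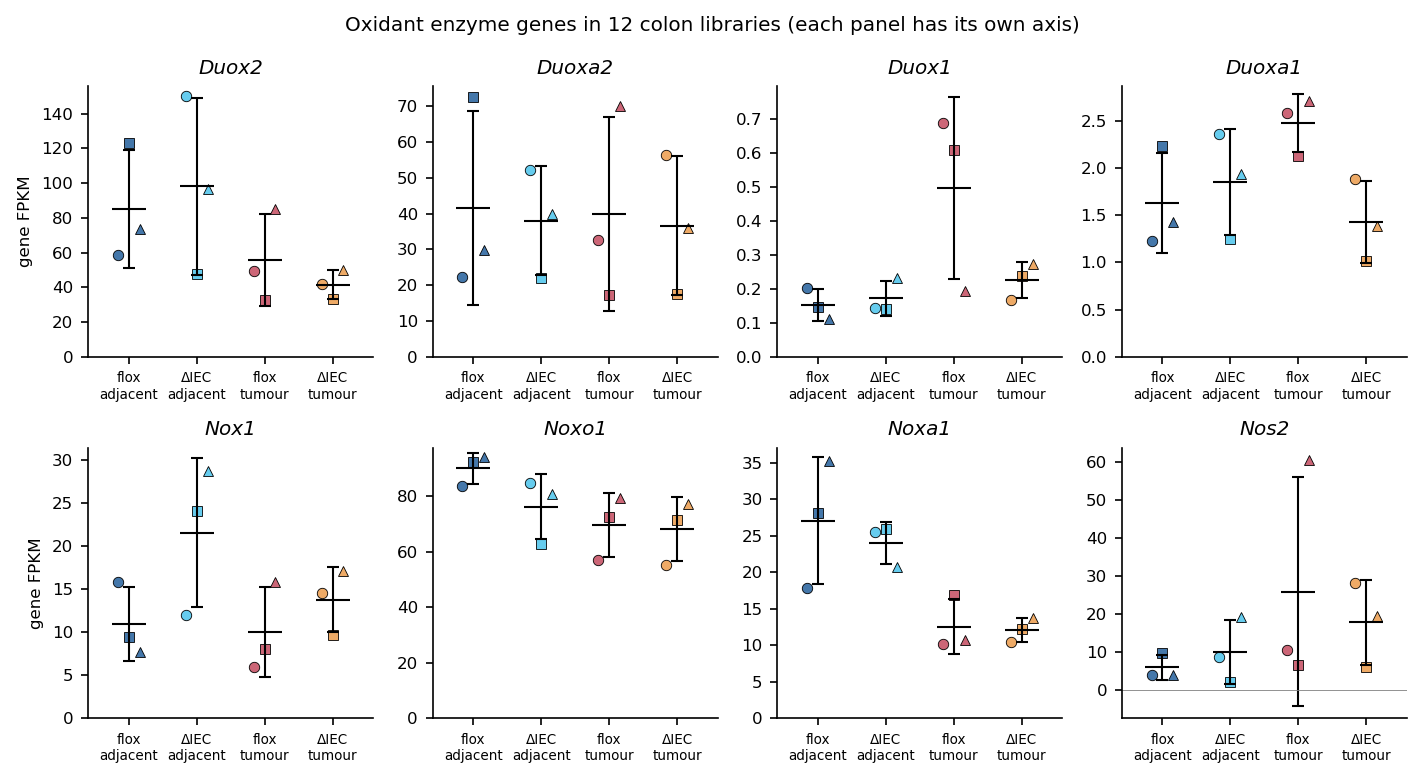
Gene FPKM of the 8 genes in each library; circles, squares and triangles are replicates 1, 2 and 3, horizontal lines are means and bars SD (n = 3 per group). Among these 8 genes, Noxa1 is the one whose 6 tumour libraries (10.2 to 16.9 FPKM) all lie below its 6 adjacent libraries (17.9 to 35.2 FPKM).

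Nox1, the catalytic subunit (minus strand of chromosome X, 134086421 to 134221956), was at 15.8, 9.45 and 7.64 FPKM in flox adjacent tissue and at 11.997, 24.0 and 28.6 FPKM in ΔIEC adjacent tissue. Of the ΔIEC libraries, 2 lay above all flox libraries and the third lay inside the flox range. In tumours it was at 5.97, 8.05 and 15.9 FPKM in flox mice and at 14.5, 9.65 and 17.1 FPKM in ΔIEC mice, and these groups overlapped. The ΔIEC minus flox difference was 0.89 in adjacent tissue (SE 0.405, unadjusted p = 0.0524, limma adjusted p = 0.931) and 0.50 in tumours (SE 0.405, limma adjusted p = 1). Tumour minus adjacent was -0.17 in flox mice (limma adjusted p = 0.773) and -0.56 in ΔIEC mice (limma adjusted p = 0.32), so none of these passed. The annotated Nox1 gene overlaps Cstf2 and Arl13a on the other strand and Xkrx on its own. The transcript Nox1-201, with 92.8% of the gene's FPKM, spans 134086421 to 134111854, which takes in the Cstf2 overlap but not those with Arl13a and Xkrx.

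The Nox1 level in adjacent tissue ran with that of Hoxb13, whose values are given above with Noxa1. Within each genotype, the library order of Hoxb13 was the library order of Nox1, and ΔIEC replicate 3 had more Nox1 than flox replicate 1 at the lower Hoxb13 level. Over the 6 adjacent libraries, Pearson's r was 0.82 (permutation p = 0.0458, adjusted 0.0688 over 6 relations) and Spearman's rho 0.83 (permutation p = 0.0583, adjusted 0.117). Without the 2 libraries farthest from the median of Hoxb13, r was 0.90. The tumours spanned a narrow range, 40.9 to 53.4 FPKM of Hoxb13, and there r was -0.05 and rho 0.03 (permutation p = 0.932 and p = 1, adjusted 0.932 and 1), with r at -0.80 after leaving out 2 libraries. The relation was picked after the values were seen, it did not pass the adjustment, and the part of position along the colon in the Nox1 differences was not tested.

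**Figure D2:**
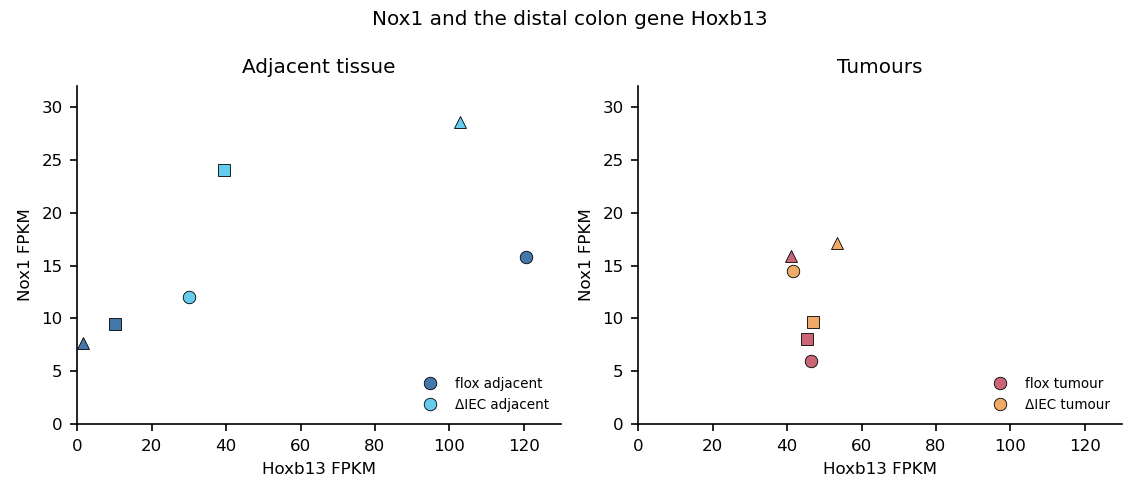
Nox1 FPKM against Hoxb13 FPKM in the 6 adjacent and the 6 tumour libraries, with circles, squares and triangles for replicates 1, 2 and 3. In adjacent tissue Hoxb13 spans 1.56 to 120 FPKM and the library with more of it has more Nox1 within each genotype, while the tumours lie between 40.9 and 53.4 FPKM.

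Noxo1, the organizer that holds the NOX1 complex at the membrane (plus strand of chromosome 17, 24696234 to 24700529), varied least in summed FPKM, by 1.71-fold over the 12 libraries. Its level was 83.9, 92.3 and 94.2 FPKM in flox adjacent tissue, 84.9, 63.0 and 80.9 in ΔIEC adjacent tissue, 57.2, 72.6 and 79.5 in flox tumours and 55.2, 71.7 and 77.4 in ΔIEC tumours. In flox mice the tumours lay below the adjacent libraries without overlap, whereas in ΔIEC mice they overlapped. The difference was -0.38 in flox tumours (SE 0.169, limma adjusted p = 0.104) and -0.16 in ΔIEC tumours (SE 0.169, limma adjusted p = 0.493). Both turn positive with protein-coding genes set equal (0.07 and 0.15), and ΔIEC minus flox did not pass in either tissue (-0.25 and -0.03, limma adjusted p = 0.931 and adjusted p = 1).

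Little of the Noxo1 signal belonged to its protein-coding transcript. Of 8 annotated transcripts, 1 is coding, and it held 5.84% to 11.2% of the gene's summed FPKM. The coding transcript was at 7.26, 8.40 and 8.36 FPKM in flox adjacent tissue and 9.48, 4.68 and 6.08 FPKM in ΔIEC adjacent tissue. In tumours it was at 4.22, 6.24 and 4.64 FPKM in flox mice and 3.91, 6.18 and 4.90 FPKM in ΔIEC mice. On this transcript the flox groups did not overlap and the ΔIEC groups did. With coding transcripts alone in every gene, the difference was -0.59 in flox tumours (limma adjusted p = 0.0551) and -0.34 in ΔIEC tumours (limma adjusted p = 0.261). Of the 8 transcripts, 7 lie wholly inside Tbl3, a gene on the opposite strand whose own level was 11.99 to 15.5 FPKM, and the sources used here do not say whether fragments were counted by strand. The level of Noxo1 is therefore uncertain. The same holds for its spread over libraries, its rank in flox tumour replicate 3 and the genes most like it, which all use the summed level. Its coding transcript ran from 3.91 to 9.48 FPKM.

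**Figure D3:**
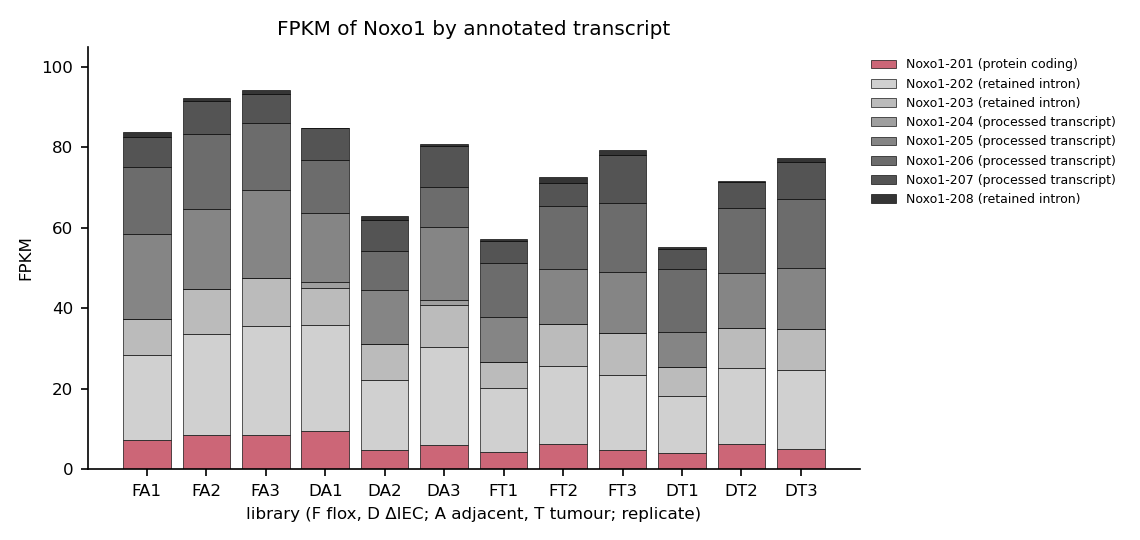
Noxo1 FPKM in each library, stacked by annotated transcript, with the protein-coding transcript in red and the retained-intron and processed transcripts in grey. The red part is 3.91 to 9.48 FPKM of totals between 55.2 and 94.2 FPKM.

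Transcripts of the other NOX1 partners were also measured. Cyba, the membrane subunit that NOX1 shares with the phagocyte oxidase, rose from 63.4 ± 12.8 to 130 ± 27.1 FPKM in flox tumours and from 56.1 ± 14.5 to 124 ± 13.6 FPKM in ΔIEC tumours (SD, n = 3 each). The differences were 1.03 (limma adjusted p = 0.00495) and 1.16 (limma adjusted p = 0.00414), and both kept their call in the 24 alternatives run on them. In the main fit Cyba was the 1 called gene among the 6 phagocyte oxidase genes tested, beside 36.3% and 29.4% of all tested genes. The list median was 0.86 in flox and 0.17 in ΔIEC tumours. With protein-coding genes set equal, 3 of the 6 rose in flox tumours and 1 in ΔIEC tumours. Leukocytes also express Cyba. Rac1 fell by 0.41 in flox tumours (limma adjusted p = 0.0161), a call lost without flox adjacent replicate 2 or flox tumour replicate 1 and turned to 0.04 (limma adjusted p = 0.756) with protein-coding genes set equal. In ΔIEC tumours its difference was -0.08 (limma adjusted p = 0.615).

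Duox2, the dual oxidase of the gut (minus strand of chromosome 2, 122279247 to 122298449), was between 32.8 and 149.8 FPKM in every library. Its level was 58.7, 123 and 73.5 FPKM in flox adjacent tissue and 149.8, 47.6 and 96.7 FPKM in ΔIEC adjacent tissue. In tumours it was 49.5, 32.8 and 84.9 FPKM in flox mice and 41.9, 33.1 and 49.8 FPKM in ΔIEC mice. The highest tumour lay above 3 of the 6 adjacent libraries, and the groups overlapped in both genotypes. The means were 85.1 ± 33.8 and 98.0 ± 51.1 FPKM in adjacent tissue and 55.7 ± 26.6 and 41.6 ± 8.34 FPKM in tumours of flox and ΔIEC mice (SD, n = 3 each).

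The Duox2 difference was -0.64 in flox tumours (SE 0.451, limma adjusted p = 0.293) and -1.09 in ΔIEC tumours (SE 0.451, unadjusted p = 0.0358, limma adjusted p = 0.0935). Neither passed, and the ΔIEC difference became a call (-1.53, limma adjusted p = 0.0243) without ΔIEC adjacent replicate 2, the lowest adjacent library of Duox2, Duoxa2, Nos2 and Noxo1. ΔIEC minus flox was 0.12 in adjacent tissue (limma adjusted p = 0.978) and -0.33 in tumours (limma adjusted p = 1).

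Duoxa2, the maturation factor of DUOX2 (plus strand, 122298900 to 122302885), had group means that lay close together, between 36.7 and 41.6 FPKM. It was at 22.3, 72.7 and 29.8 FPKM in flox adjacent tissue and 52.3, 21.9 and 40.0 FPKM in ΔIEC adjacent tissue. In tumours it was at 32.7, 17.2 and 70.0 FPKM in flox mice and 56.4, 17.6 and 36.0 FPKM in ΔIEC mice. All 4 groups overlapped, each with a lowest library of 17.2 to 22.3 FPKM and a highest of 52.3 to 72.7 FPKM. The differences were -0.09 and -0.11 in flox and ΔIEC tumours and -0.03 and -0.05 for ΔIEC minus flox in adjacent tissue and tumours (SE 0.61 for each, limma adjusted p = 0.923, 0.908, 0.998 and 1). Such an SE leaves room for changes of the size seen in Noxa1, so these values do not show that Duoxa2 was unaltered.

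Within libraries, Duox2 and Duoxa2 were high or low together. Over the 6 adjacent libraries Pearson's r was 0.92 (permutation p = 0.0125, adjusted 0.0688 over 6 relations) and Spearman's rho 0.94 (permutation p = 0.0167, adjusted 0.1), and r was 0.99 without the 2 libraries farthest from the median of Duoxa2. Over the 6 tumours r was 0.83 (permutation p = 0.0347, adjusted 0.0688) and rho 0.83 (permutation p = 0.0583, adjusted 0.117), and r fell to 0.58 without 2 libraries, so the tumour value rests in part on those.

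The ratio of Duox2 to Duoxa2 was lower in tumours. It was 2.63, 1.69 and 2.47 in flox adjacent tissue and 2.87, 2.17 and 2.42 in ΔIEC adjacent tissue. In tumours it was 1.51, 1.91 and 1.21 in flox mice and 0.743, 1.88 and 1.38 in ΔIEC mice. In ΔIEC mice the groups did not overlap, with means of 2.48 ± 0.353 and 1.33 ± 0.568 (SD, n = 3 each), a log2 difference of -0.99 (exact permutation p = 0.1, the smallest that 3 against 3 allows). In flox mice they overlapped, with means of 2.26 ± 0.499 and 1.54 ± 0.347 (SD, n = 3 each) and a log2 difference of -0.55 (exact permutation p = 0.2). ΔIEC tumour replicate 1 was the only library with more Duoxa2 than Duox2. Between genotypes the log2 ratio differed by 0.15 in adjacent tissue (exact permutation p = 0.7) and -0.29 in tumours (exact permutation p = 0.6). A ratio within a library does not depend on its scaling, but this one was chosen after the values were seen and no test on it reached 0.05.

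**Figure D4:**
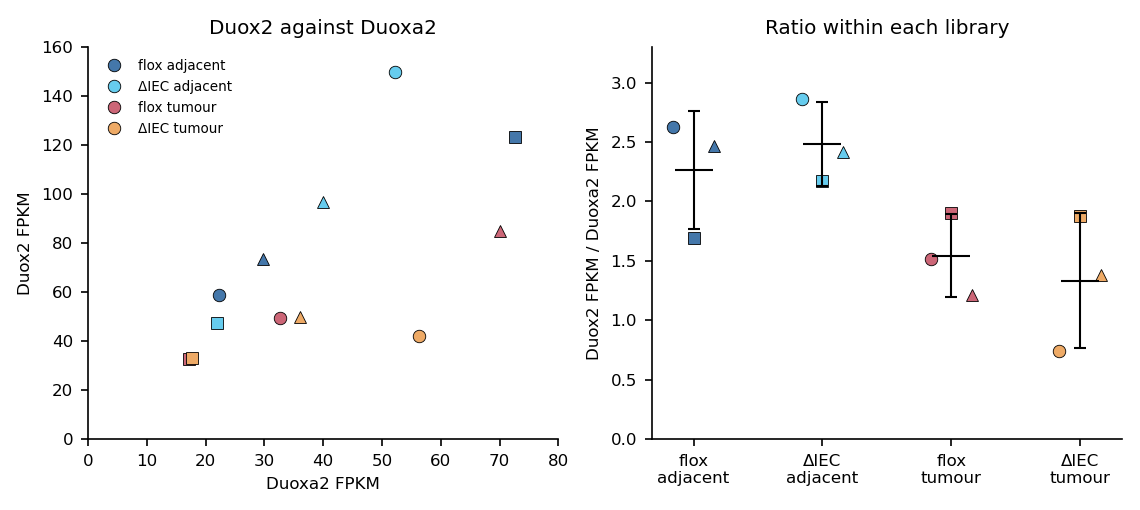
Left, Duox2 FPKM against Duoxa2 FPKM in the 12 libraries; right, their ratio within each library with mean and SD (n = 3 per group), with circles, squares and triangles for replicates 1, 2 and 3. The ratio is 1.69 to 2.87 in adjacent tissue and 0.743 to 1.91 in tumours.

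Duox1 and Duoxa1, the neighbouring pair, were far lower. Duox1 (plus strand, 122315672 to 122347972) lay between 0.110 and 0.690 FPKM, under 1 FPKM in all 12 libraries, and was not tested in the main fit. It was at 0.202, 0.145 and 0.110 FPKM in flox adjacent tissue and 0.690, 0.610 and 0.193 FPKM in flox tumours, where the groups overlapped. In ΔIEC mice it was at 0.144, 0.141 and 0.232 FPKM in adjacent tissue and 0.168, 0.237 and 0.272 FPKM in tumours. With no filter on low values, the flox tumour difference was 0.36 (limma adjusted p = 0.0668). The 2 higher flox tumours, replicates 1 and 2, were also those with squamous marker sums of 397 and 382 FPKM, against 19.5 to 44.0 FPKM in the other tumours. The part of squamous cells in the Duox1 level was not tested.

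Duoxa1, the factor of DUOX1 (minus strand, 122302191 to 122313730), was at 1.23, 2.23 and 1.43 FPKM in flox adjacent tissue and 2.36, 1.25 and 1.94 FPKM in ΔIEC adjacent tissue. It was at 2.59, 2.13 and 2.71 FPKM in flox tumours and 1.88, 1.02 and 1.39 FPKM in ΔIEC tumours. The ΔIEC tumours lay below the flox tumours without overlap, at 57.7% of their mean, a difference of -0.53 (SE 0.206, unadjusted p = 0.0276, limma adjusted p = 1). No tested gene was called in that comparison (0% called, 1.87% at an unadjusted p below 0.05). Tumour minus adjacent was 0.42 in flox mice (SE 0.206, limma adjusted p = 0.136) and -0.23 in ΔIEC mice (SE 0.206, limma adjusted p = 0.436), and with protein-coding genes set equal the flox difference was a call (0.89, limma adjusted p = 0.0112). The genotype-by-tissue interaction of Duoxa1 was -0.64 (SE 0.291, unadjusted p = 0.0509, limma adjusted p = 1.0). Duoxa1 and Duoxa2 overlap by 695 bases on opposite strands, and over the 12 libraries Duoxa2 had a mean of 39.1 FPKM and Duoxa1 one of 1.85 FPKM. The part of Duoxa2 fragments in the Duoxa1 level was not tested.

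Nos2 (plus strand of chromosome 11, 78920787 to 78960254) varied most, by 28.7-fold between the lowest and highest library. It was at 3.96, 9.69 and 3.87 FPKM in flox adjacent tissue and 8.59, 2.11 and 19.0 FPKM in ΔIEC adjacent tissue. In tumours it was at 10.5, 6.36 and 60.5 FPKM in flox mice and 28.1, 5.82 and 19.3 FPKM in ΔIEC mice. Single libraries set the group means, and tumours and adjacent tissue overlapped in both genotypes. The difference was 1.45 in flox tumours (SE 0.901, limma adjusted p = 0.234) and 0.92 in ΔIEC tumours (SE 0.901, limma adjusted p = 0.472). It was 0.53 without flox tumour replicate 3 (limma adjusted p = 0.653), and 0.20 without ΔIEC adjacent replicate 2 (limma adjusted p = 0.888) or 0.48 without ΔIEC tumour replicate 1 (limma adjusted p = 0.778). ΔIEC minus flox was 0.40 in adjacent tissue (limma adjusted p = 0.962) and -0.13 in tumours (limma adjusted p = 1).

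Flox tumour replicate 3 had the highest tumour level of 5 of the 8 genes, namely Nos2, Duox2, Duoxa2, Duoxa1 and Noxo1. The 2 tumours with the most Nos2, flox replicate 3 and ΔIEC replicate 1, also had the highest sums of the 7 neutrophil markers, 355 and 616 FPKM, against 138 to 215 FPKM in the other 4. Their macrophage marker sums, 150 and 178 FPKM, lay inside the range of the other tumours (118 to 217 FPKM). In adjacent tissue the 7 neutrophil markers summed to 5.02, 7.04 and 3.69 FPKM in flox mice and 3.25, 8.20 and 6.65 FPKM in ΔIEC mice. Nos2 there was highest in ΔIEC replicate 3 (19.0 FPKM) and lowest in ΔIEC replicate 2 (2.11 FPKM). The part of neutrophils in the Nos2 level was not tested. Nos2 and Duox2 had an r of 0.75 over the adjacent libraries (permutation p = 0.0931, adjusted 0.112; rho 0.71, permutation p = 0.136, adjusted 0.163). Over the tumours r was 0.87 (permutation p = 0.025, adjusted 0.0688; rho 0.77, permutation p = 0.103, adjusted 0.154), and 0.51 without 2 libraries.

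**Figure D5:**
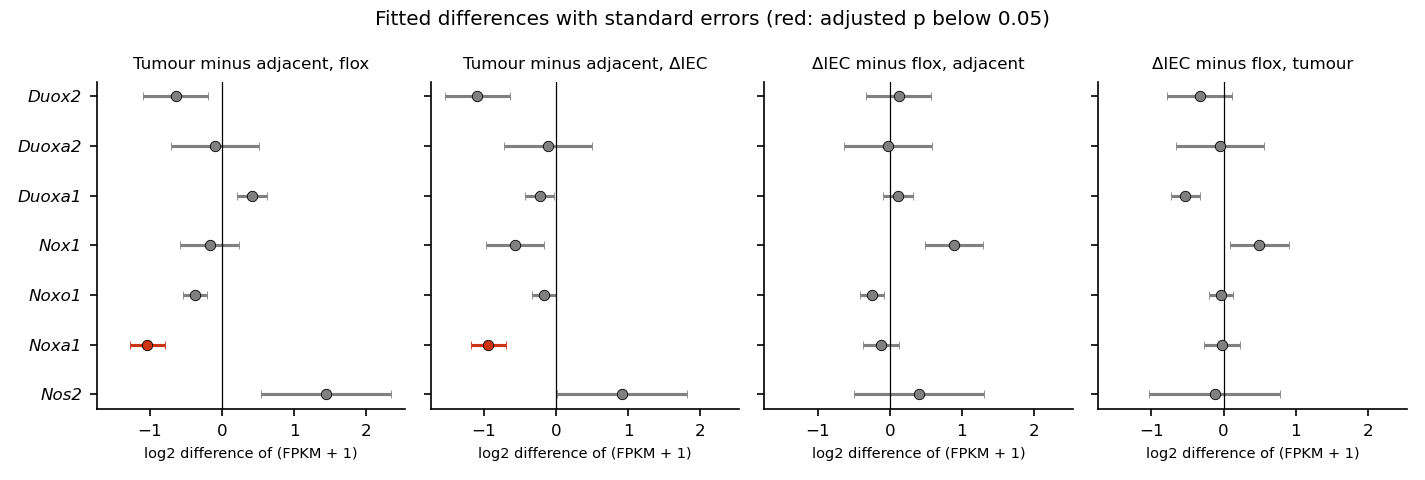
Fitted differences of log2(FPKM + 1) with their standard errors for the 7 tested genes in 4 comparisons; red points have an adjusted p below 0.05. The only red points are Noxa1 in flox tumours (-1.03) and in ΔIEC tumours (-0.93).

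Between genotypes, none of the 7 tested genes was called by limma in adjacent tissue, in tumours or in the interaction. None of the 16970 tested genes was called in these either (0% called in each), while with no filter on low values 8 of 31599 genes were called between genotypes in tumours. At an unadjusted p below 0.05 there were 702, 317 and 448 genes, 4.14%, 1.87% and 2.64% of those tested, and Duoxa1 in tumours was the 1 among the 7. The median over the 7 genes was 0.12 in adjacent tissue and -0.05 in tumours.

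Genes that handle the products of these enzymes changed in both directions. In the main fit, 16.6% of all tested genes rose and 19.7% fell in flox tumours, and 13.9% and 15.5% in ΔIEC tumours. With protein-coding genes set equal, 5841 of 13325 rose and 1491 fell in flox tumours, and 4133 and 1281 in ΔIEC tumours. No list here or in the next paragraphs was tested against these shares. Of 13 genes of nitric oxide and arginine metabolism, 5 rose and 3 fell in flox tumours, and 5 rose and 1 fell in ΔIEC tumours. With protein-coding genes set equal the counts were 8 and 2 in flox tumours and 6 and 1 in ΔIEC tumours, and with median centring 4 and 4, and 5 and 1. Arg1, an arginase that competes with NOS2 for arginine, rose by 3.56 and 3.81 on the log2(FPKM + 1) scale (limma adjusted p = 0.000428 and adjusted p = 0.000795). Ddah2 rose by 2.26 and 2.03 (limma adjusted p = 0.00144 and adjusted p = 0.00373). Its relative Ddah1, which clears a methylated arginine that inhibits nitric oxide synthases, fell by 2.09 and 1.48 (limma adjusted p = 0.00299 and adjusted p = 0.0182). The Ddah1 call in ΔIEC tumours was lost without adjacent replicate 1, tumour replicate 1 or tumour replicate 2, and the calls of Arg1 and Ddah2 held in the 24 alternatives. Arg1 is also expressed by neutrophils and macrophages. Macrophage marker sums were 47.1 to 101 FPKM in flox adjacent tissue and 118 to 217 FPKM in flox tumours, but overlapped in ΔIEC mice (38.1 to 189 and 174 to 192 FPKM), and the part of these cells in the Arg1 difference was not tested.

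Of 14 genes that remove hydrogen peroxide and superoxide, 4 rose and 6 fell in flox tumours and 2 rose and 2 fell in ΔIEC tumours. With protein-coding genes set equal those counts were 7 and 1 in flox tumours and 5 and 0 in ΔIEC tumours, so the direction of this list depends on the scaling. Of the 2 peroxidases that use hydrogen peroxide and were tested, Pxdn, the peroxidase of basement membrane, rose by 1.93 and 1.38 (limma adjusted p = 0.00226 and adjusted p = 0.0141). Lpo, lactoperoxidase, fell by 2.06 in flox tumours (limma adjusted p = 0.0174), a call lost without flox adjacent replicate 2, flox adjacent replicate 3 or flox tumour replicate 3.

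Among 12 genes of thioredoxin and glutathione supply and NRF2 targets, 3 rose and 7 fell in flox tumours and 4 rose and 3 fell in ΔIEC tumours, and with protein-coding genes set equal 4 rose and 3 fell, and 4 rose and 1 fell. Hmox1, the heme oxygenase, rose by 2.70 and 2.16 (limma adjusted p = 0.000348 and adjusted p = 0.00141), and Slc7a11, the cystine importer, by 2.37 and 1.94 (limma adjusted p = 0.000453 and adjusted p = 0.00168). Both held in the 24 alternatives. Nqo1, on the same list, went the other way, with differences of -1.55 in flox and -1.26 in ΔIEC tumours (limma adjusted p = 0.0187 and adjusted p = 0.0498). The median of the list was -0.71 in flox and -0.42 in ΔIEC tumours.

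Of 17 cytokines and receptors known to induce these enzymes, 10 were tested, of which 4 rose and 3 fell in flox tumours and 4 rose and 2 fell in ΔIEC tumours. With protein-coding genes set equal the counts were 5 and 1 in flox tumours and 4 and 1 in ΔIEC tumours. Il1b rose by 4.21 and 4.37 (limma adjusted p = 0.000983 and adjusted p = 0.00165), while Il17re, the receptor through which epithelium responds to IL-17C, fell by 1.51 and 1.36 (limma adjusted p = 0.00365 and adjusted p = 0.00802). Of 15 transcription factors and adaptors, 3 rose in flox tumours and 1 in ΔIEC tumours, and with protein-coding genes set equal 8 and 4 rose. Cebpd rose by 1.15 in flox tumours (limma adjusted p = 0.00636), and Rela, a subunit of NF-κB, by 0.53 and 0.41 (limma adjusted p = 0.01 and adjusted p = 0.0348). The Rela call in ΔIEC tumours was lost in 8 of 24 alternatives. In these lists no gene was called between genotypes.

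By correlation of log2(FPKM + 1) over the 12 libraries, the genes most like Duox2 were Stat2 (r = 0.94), D5Ertd579e (0.94), Mov10 (0.94) and Uba7 (0.93). Those most like Noxo1 were Setd4 (0.96), Wasf2 (0.93), Itpr3 (0.93) and Dcaf15 (0.91), and those most like Nos2 were Olfr56 (0.90), Psme1 (0.90), H2-Q4 (0.88) and Gbp2 (0.88). Nox1 had weaker partners, led by Otulin (0.84), Cnbd2 (0.83), Flt3l (0.81) and Scly (0.80). The values are picked as the highest of all tested genes and the libraries share groups and scaling, so they are a description.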

How the data were processed

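Dissected colon tumours and adjacent tissue gave total RNA and strand-specific TruSeq libraries, per the labels' protocols; the series title speaks of scraped epithelium. The authors deposited log2(FPKM + 1) values per transcript. FastQC, STAR 2.5, Cuffnorm and GRCm38 are named in the submitters' processing notes; annotation, library normalization and strand in counting: not given in the sources used here. Here FPKM were recovered from the logarithms and added up per gene for the 118004 of 123062 transcripts (95.9%) matched to GENCODE M21 (GRCm38); unmatched transcripts held 4.36% to 7.44% of a library's FPKM. FPKM carry no read depth, so no counting interval is given.

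limma 3.58.1 (R 4.3.3; lmFit, contrasts.fit, eBayes with trend and robust) was fitted to log2(FPKM + 1), 1 mean for each of 4 groups and 8 residual degrees of freedom, over the 16970 genes that reached 1 FPKM in 3 or more libraries. The 5 contrasts were adjusted by Benjamini-Hochberg separately over all tested genes. The alternatives were another pseudocount, other filters, 3 scalings, other variance settings, replicate blocks, leaving out each library, and other sums over transcripts; coding transcripts alone were added after the data were seen. On simulated data with 200 changed genes among 16970, changes of 2 log2 units were recovered at 89% in flox tumours and 90% in ΔIEC tumours, and changes of 1 unit at 57% in each. Between genotypes, changes of 1 unit were recovered at 52% in adjacent tissue and 58% in tumours, and in the interaction at 33%. Unchanged genes made up 8.18% of the calls in flox tumours and 6.37% in ΔIEC tumours. Correlations use log2(FPKM + 1), and ratios use FPKM.

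The labels do not say that replicates are separate animals, so p-values measure the spread between libraries. The description codes of tumour and adjacent libraries match for all 3 flox replicates and for ΔIEC replicates 2 and 3, which may mean shared animals. Genes and lists were chosen with earlier results of these data known. All 8 genes were named, and from each list up to 3 called genes with the largest difference per tumour contrast, of which those most robust to the alternatives or closest to these enzymes are described; Hoxb13, Tbl3, the neutrophil sum without Ly6g and the Duox2 to Duoxa2 ratio were chosen after their values were seen.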

Additional observations from a re-analysis of the deposited data

How the results depend on the processing

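For the 7 tested genes in 5 comparisons, 808 of 863 alternative values kept direction and side of the threshold, 4 lost a call, 2 gained one and 49 reversed, 35 of these on leaving out a library; the reversed values all belonged to differences that were not called. FPKM depth is unknown, and 3 libraries a group limit the precision.

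Setting protein-coding genes equal turned flox tumour differences to 0.35 (Duoxa2), 0.25 (Nox1) and 0.068 (Noxo1), ΔIEC tumour differences to 0.19 (Duoxa2) and 0.15 (Noxo1), the Duoxa2 genotype difference in adjacent tissue to 0.056 and the Noxa1 interaction to -0.037. It left 0 of the 7 genes called in ΔIEC tumours, where 5414 of the 13325 genes tested in that setting were called. Its calls split into 5841 higher and 1491 lower in flox tumours and 4133 and 1281 in ΔIEC tumours. The main fit, over 16970 genes, gave 2817 and 3346, and 2357 and 2624. Quantile normalization, over the same 16970, gave 3091 and 2982, and 2756 and 2387. That normalization turned Duoxa2 to 0.16 and 0.061 in flox and ΔIEC tumours and 0.040 by genotype in adjacent tissue, and Noxo1 to 0.053 in ΔIEC tumours. Median centring turned the Duoxa2 interaction to 0.036, and the most abundant transcript alone turned Noxa1 to 0.052 by genotype in adjacent tissue and -0.15 in the interaction. The cause was not tested. Fitting only the groups compared gave 2564 calls in ΔIEC tumours and 1 between genotypes in tumours, where no filter gave 8.

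Leaving out each library gave 3891 (without flox adjacent replicate 2) to 6725 calls in flox tumours, 2910 (without ΔIEC tumour replicate 1) to 5086 in ΔIEC tumours, 0 to 299 (without ΔIEC adjacent replicate 1) between genotypes in adjacent tissue, 0 to 3 in tumours and 0 to 1 in the interaction, and 0 to 2 of the 7 genes called in ΔIEC tumours, 2 without ΔIEC adjacent replicate 2. In tumours Nos2 ran from 0.53 to 2.06 in flox and 0.20 to 1.54 in ΔIEC mice. Ranges that crossed 0 were, in flox tumours, Duoxa2 -0.60 to 0.39 and Nox1 -0.53 to 0.11; in ΔIEC tumours, Duoxa2 -0.49 to 0.32; by genotype in adjacent tissue, Duox2 -0.25 to 0.57, Duoxa1 -0.013 to 0.28, Duoxa2 -0.37 to 0.46, Noxa1 -0.38 to 0.088 and Nos2 -0.22 to 1.12; by genotype in tumours, Duox2 -0.65 to 0.024, Duoxa2 -0.52 to 0.46, Noxo1 -0.17 to 0.11, Noxa1 -0.15 to 0.19 and Nos2 -0.74 to 0.79; and in the interaction, Duoxa2 -0.51 to 0.49, Noxa1 -0.11 to 0.36 and Nos2 -1.25 to 0.38.

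Deviations from the group means in same-numbered tumour and adjacent libraries had an r of 0.05, -0.19 and 0.10 in flox mice. In ΔIEC mice r was 0.19, 0.05 and 0.17, the first for replicate 1, whose description codes do not match. Deviations from means of 3 libraries cannot decide whether libraries shared an animal. The main fit used no pairing. A replicate block on the number gave 5710 and 4524 calls in flox and ΔIEC tumours, on the description code 6286 and 5060, and as a fixed term 5387 and 4115; it changed no call among the 7 genes.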
